A study of Mus musculus with 32 samples.

Results

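The transcripts described here carry the names of Wnt, FGF, BMP, TGF-beta and Nodal signalling genes. They are the rows of the authors' deposited table of chromatin-bound RNA whose gene name begins with Wnt, Fzd, Fgf, Bmp, Tgfb, Smad, Dkk or Spry, or is Znrf3, Rnf43, Lef1, Tcf7, Nodal, Lefty1, Lefty2 or Gsc. This rule found 56 of the 5723 listed transcripts, named for 39 genes. No row was named for Nodal, Rnf43 or a Tgfb ligand. Bmp2k, the gene of a kinase induced by BMP2, met the rule by its first letters alone.

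The study set wild-type mouse embryonic stem cells (genotype WT) against H1-TKO cells, a triple knockout of histone H1, the linker histone that binds where DNA enters the nucleosome (here TKO). Both genotypes were grown under the same conditions, in serum with LIF, the cytokine that holds these cells undifferentiated, and the labels name no drug or other agent. The labels name no knockout method and do not say whether the TKO line is 1 clone or whether replicates were separate cultures, so that each p-value measures spread among these samples alone, and that spread may be technical. Chromatin-enriched RNA (cheRNA), the RNA left in the insoluble chromatin pellet after urea and detergent, was sequenced from 3 samples per genotype. MapR, which releases DNA near R-loops (stretches where RNA pairs with DNA and displaces the other DNA strand), was made with a fusion of RNase H and micrococcal nuclease (RNH) in 2 libraries per genotype and with the nuclease alone (MNase only) in 1 library per genotype.

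Wnt proteins bind Frizzled receptors and stabilise beta-catenin, which acts on DNA through Tcf and Lef proteins. FGFs signal through receptor tyrosine kinases to ERK and are restrained by Sprouty proteins, while BMPs, TGF-beta and Nodal bind paired type I and type II receptor kinases that phosphorylate Smads. In mouse embryonic stem cells, BMP4 together with LIF and Wnt activity are known to favour self-renewal, and autocrine FGF4 acting through ERK is known to make the cells ready to differentiate.

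The authors' deposited table gives 1 log2 fold change per transcript, with no value per sample and no p-value, so no error can be given for any log2 value below. Every listed value lies at least 1.00 from zero on the log2 scale, or 2.00-fold. A gene that is not listed may have changed less than this or may have had too little RNA, and these cases cannot be told apart. The table does not say which genotype is the numerator. Its sign was set so that Hist1h1d, Hist1h1e and Hist1h1c, known as background to be the deleted H1 genes, are lower in TKO. Their deposited values of 5.02, 4.83 and 3.61 become -5.02, -4.83 and -3.61 once multiplied by -1. Every log2 value given below as from the deposited table carries this changed sign, and every direction below rests on that choice. With this sign 4 further H1 genes stand higher in TKO, with Hist1h1b at 1.01, H1fx at 1.30, H1f0 at 2.62 and Hist1h1t at 3.52 in that table. The values compare RNA on chromatin, and fewer cells with a transcript and less RNA per cell cannot be told apart in these bulk samples. As a check of cell type, 1 of 20 pluripotency markers had a listed gene transcript higher in TKO (Dppa3) and 1 lower (Klf5), and 18 had none, Pou5f1, Nanog and Sox2 among them. Gene transcripts of 5 of 13 neuroectoderm markers were higher, with Zic2 at 4.62 on the log2 scale in the authors' deposited table, and 1 was lower. Endoderm markers had 2 of 17 higher and 3 lower, mesoderm markers 0 of 13 higher and 1 lower, and fibroblast markers 1 of 13 higher. For the neuroectoderm markers this is 38.5% higher, against 4.11% of all annotated coding genes with a gene transcript higher in TKO and 4.78% with a lower one. The part of other cell types in the signalling transcripts was not tested.

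In that deposited table, 30 of the 56 signalling transcripts were higher in TKO and 26 were lower. The share of 53.6% (exact 95% binomial interval 39.7% to 67.0%, over transcripts, which are not replicates) includes the 60.1% of all listed transcripts. The table's name classes went with direction. Transcripts that carried the gene's own name (gene class) were higher in 17 of 39 cases, or 43.6%, against 45.0% of all gene transcripts. Those named as intergenic, which lie outside the gene or on its other strand and borrow its name, were higher in 12 of 16 cases, or 75.0%, against 74.0% of all intergenic transcripts. The single transcript of the class that lies on the 5′ side of a gene was higher, as were 66.4% of that class in the whole table. In each class the signalling transcripts therefore stood near the share of the whole table. Counted by gene, 31 names had a gene transcript, of which 13 (41.9%) were higher and 18 lower in all their pieces and none went both ways. Over all 2014 such names of the table, 929 (46.1%) were higher, 1079 lower and 6 went both ways.

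**Figure D1:**
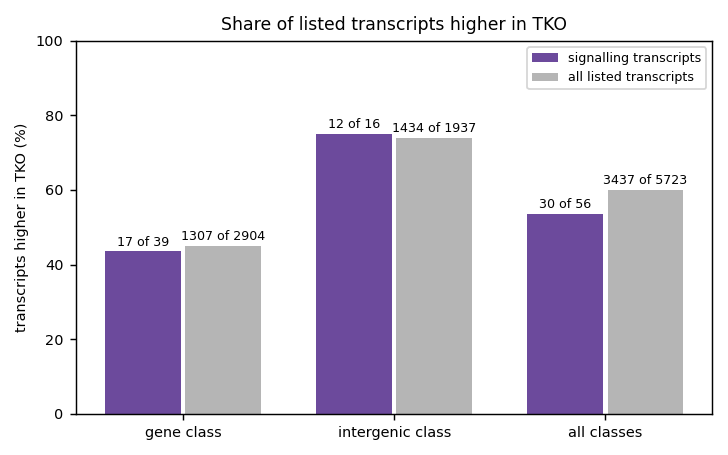
Share of listed transcripts higher in TKO (vertical axis, percent) among the signalling transcripts (purple) and all transcripts of the authors' deposited table (grey), by name class, with counts above the bars. The purple and grey bars stand at nearly the same height in the gene class (43.6% and 45.0%) and in the intergenic class (75.0% and 74.0%).

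Names that meet the rule were counted among the annotated coding genes. Of the 113 annotated coding genes whose names meet the rule, 31 (27.4%) had a listed gene transcript, against 8.92% of 21924 coding genes. Over all coding genes 4.11% had a gene transcript higher in TKO and 4.78% a lower one. These shares count genes that may have no RNA in stem cells, and they were not tested. The rule also takes in single names, and Lef1, Tcf7, Gsc, Lefty1 and Lefty2 among them each had a gene transcript. It was set with earlier results of these data known, so the share of 27.4% is no result about the families. Among 19 Wnt genes, 3 were higher, 5 lower and 11 had no gene transcript. Among 10 Frizzled genes, 2 were higher and 1 lower. Of the 22 genes with an Fgf name, Fgf1 alone had a gene transcript, while Fgf4, the main FGF of stem cells, had none. The 14 genes of the Bmp and Tgfb ligand names had 4 lower and none higher.

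**Figure D2:**
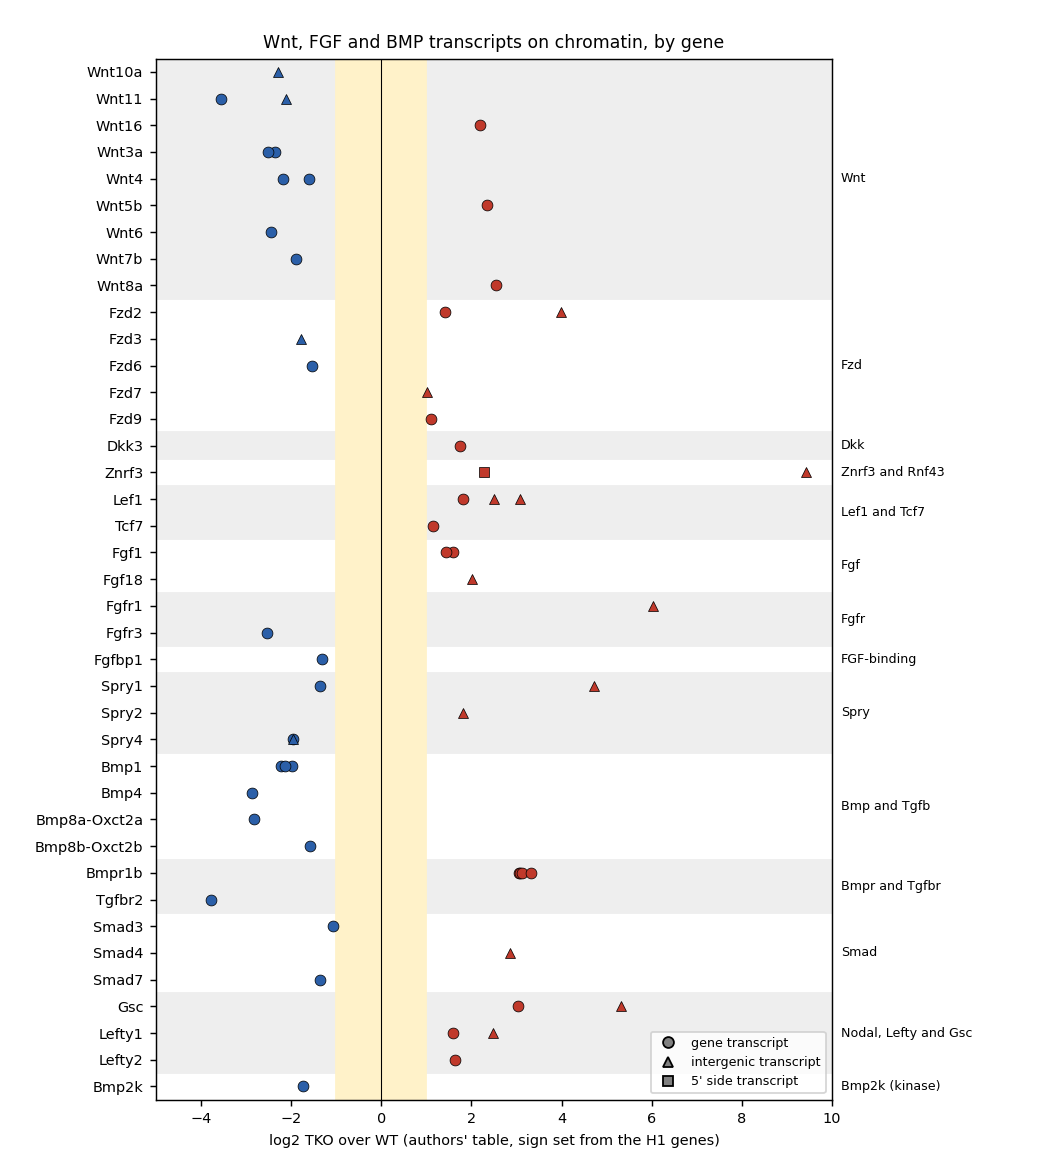
The log2 TKO over WT of each of the 56 signalling transcripts in the authors' deposited table (horizontal axis), 1 line per gene name and grouped by family. Circles are gene transcripts, triangles intergenic transcripts and the square the 5′ transcript, red is higher and blue lower in TKO, and the yellow band holds the values under 2.00-fold that the table leaves out. The Bmp ligand names are all blue, Lef1, Tcf7, Lefty1, Lefty2 and Gsc are all red, and Spry1 is the only name with marks on both sides.

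Of the 12 transcripts with Wnt ligand names, 9 (75.0%) were lower in TKO. Most of the 12 are of the gene class, where 55.0% of all listed transcripts were lower. The rest are intergenic, where 26.0% were lower, so the 39.9% over all classes is not a like measure. Several of the 12 are pieces of 1 gene, and by gene 5 were lower and 3 higher. The lowest was Wnt11, a ligand of the branch that acts without beta-catenin, at -3.55 in the authors' deposited table, or 11.7-fold lower. Wnt3a, the ligand most used to activate beta-catenin, was listed in 2 pieces at -2.51 and -2.35. The piece at -2.51 begins 33 bp before the annotated start, on chromosome 11 at 59269830 to 59290785 (GRCm38, that is mm10). Wnt4 was also listed in 2 pieces of its gene, at -1.61 and -2.18 in the deposited table. Wnt6 was listed at -2.44 and Wnt7b at -1.89. An intergenic transcript named for Wnt10a, at -2.29, runs antisense for 23341 bp across Wnt6 and the first part of Wnt10a. Both strands were thus listed as lower at Wnt6, while Wnt10a itself had no gene transcript. The other ligands listed, Wnt5b, Wnt8a and Wnt16, stood on the other side.

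Among those, Wnt8a, a ligand of early mesoderm, had 2.54 in the authors' deposited table, Wnt5b, of the beta-catenin-independent branch, had 2.35 and Wnt16 had 2.18. The Wnt16 transcript begins 203 bp after the annotated start, while that of Wnt5b begins 95411 bp after the outermost annotated start and 450 bp from a start that RefSeq places inside the gene. Wnt5b at this inner start and Wnt11 are the members at the ends of the ligand range with a RefSeq promoter, and their promoters (250 bases before to 50 after the start, GRCm38, RefSeq) are shown to compare the density of CpG dinucleotides, which are in capitals. Wnt5b lies at chr6:119449337-119449636 on the minus strand and Wnt11 at chr7:98834862-98835161 on the plus strand.
Wnt5b promoter: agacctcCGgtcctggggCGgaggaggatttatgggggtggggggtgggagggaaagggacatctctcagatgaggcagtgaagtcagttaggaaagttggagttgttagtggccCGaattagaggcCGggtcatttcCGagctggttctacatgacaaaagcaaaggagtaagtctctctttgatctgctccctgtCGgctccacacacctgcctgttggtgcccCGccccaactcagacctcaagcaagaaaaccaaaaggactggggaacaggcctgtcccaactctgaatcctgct
Wnt11 promoter: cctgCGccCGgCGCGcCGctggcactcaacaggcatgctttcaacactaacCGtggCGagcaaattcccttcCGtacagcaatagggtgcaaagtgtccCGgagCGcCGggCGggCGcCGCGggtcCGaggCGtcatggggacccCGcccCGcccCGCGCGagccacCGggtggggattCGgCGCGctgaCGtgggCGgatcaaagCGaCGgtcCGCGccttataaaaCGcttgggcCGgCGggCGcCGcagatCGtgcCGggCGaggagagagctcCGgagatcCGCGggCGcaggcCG
The Wnt5b stretch holds 7 CpG and the Wnt11 stretch 45, and 1.93% of the 32841 RefSeq promoters compared have as many CpG as Wnt11 or more. Either of the letters CTTTGAT and CTTTGAA, the core bound by Tcf and Lef proteins, was found on 1 of the strands in these 2 promoters. The other 21 member promoters had neither, so 2 of 23 held them, a share near the 8.65% of all promoters. A match of letters is no sign of binding.

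Upstream of Wnt11, 16902 bp before the gene and on its strand, a short intergenic transcript of 2905 bp was also lower, at -2.12 in the authors' deposited table. It was the only one of the 56 transcripts with an RNH peak in all 4 libraries, where 3.30% of all listed transcripts had one. The peaks did not all coincide. The WT replicate 2 peak (fold enrichment 5.91 over local background, as the authors give it) and a TKO replicate 2 peak (4.28) share 197 bp at chr7:98815799-98815995, shown here on the plus strand with CpG in capitals because it is the stretch where both genotypes had a peak.
Stretch upstream of Wnt11: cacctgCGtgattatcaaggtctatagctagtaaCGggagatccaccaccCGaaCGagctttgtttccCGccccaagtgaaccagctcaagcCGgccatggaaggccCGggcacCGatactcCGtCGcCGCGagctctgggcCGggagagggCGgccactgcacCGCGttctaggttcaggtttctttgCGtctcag
It holds 17 CpG. The peaks of WT replicate 1 (3.29) and TKO replicate 1 (3.60) lie on either side of it, within the transcript or across its edge.

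Receptors and inhibitors of the Wnt branch were mixed. Fzd2 was higher at 1.41 in the authors' deposited table, and an antisense transcript of 9026 bp that spans the whole gene was higher at 3.99. Fzd9, a single-exon Frizzled gene, was higher at 1.10, close to the table's limit. Fzd6 was lower at -1.53. A transcript antisense to Fzd3, over part of the gene, was lower at -1.78, and one on the strand of Fzd7, 13488 bp before the gene, was listed at 1.02, the smallest value among the members. Dkk3, a divergent member of the Dickkopf family of Wnt inhibitors, was higher at 1.74. The Frizzled transcripts therefore held 4 higher and 2 lower values, with no common direction.

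Znrf3, the ubiquitin ligase that removes Frizzled receptors from the cell surface, had no gene transcript in the table, yet the DNA before it gave the most extreme member. A transcript of 33601 bp on the gene's strand, on chromosome 11 at 5444849 to 5478449, ends where Znrf3 begins and was higher at 2.28 in the authors' deposited table. Inside its span and on the opposite strand, a transcript of 6778 bp stood at 9.43, or 688-fold higher, the second highest value of all 5723. A fold of this size depends on how the authors' fit treats counts near zero in WT, which the table does not show. The start of Znrf3 had an RNH peak in WT replicate 1 (fold enrichment 5.15), TKO replicate 1 (4.12) and TKO replicate 2 (3.44), and none in WT replicate 2.

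**Figure D3:**
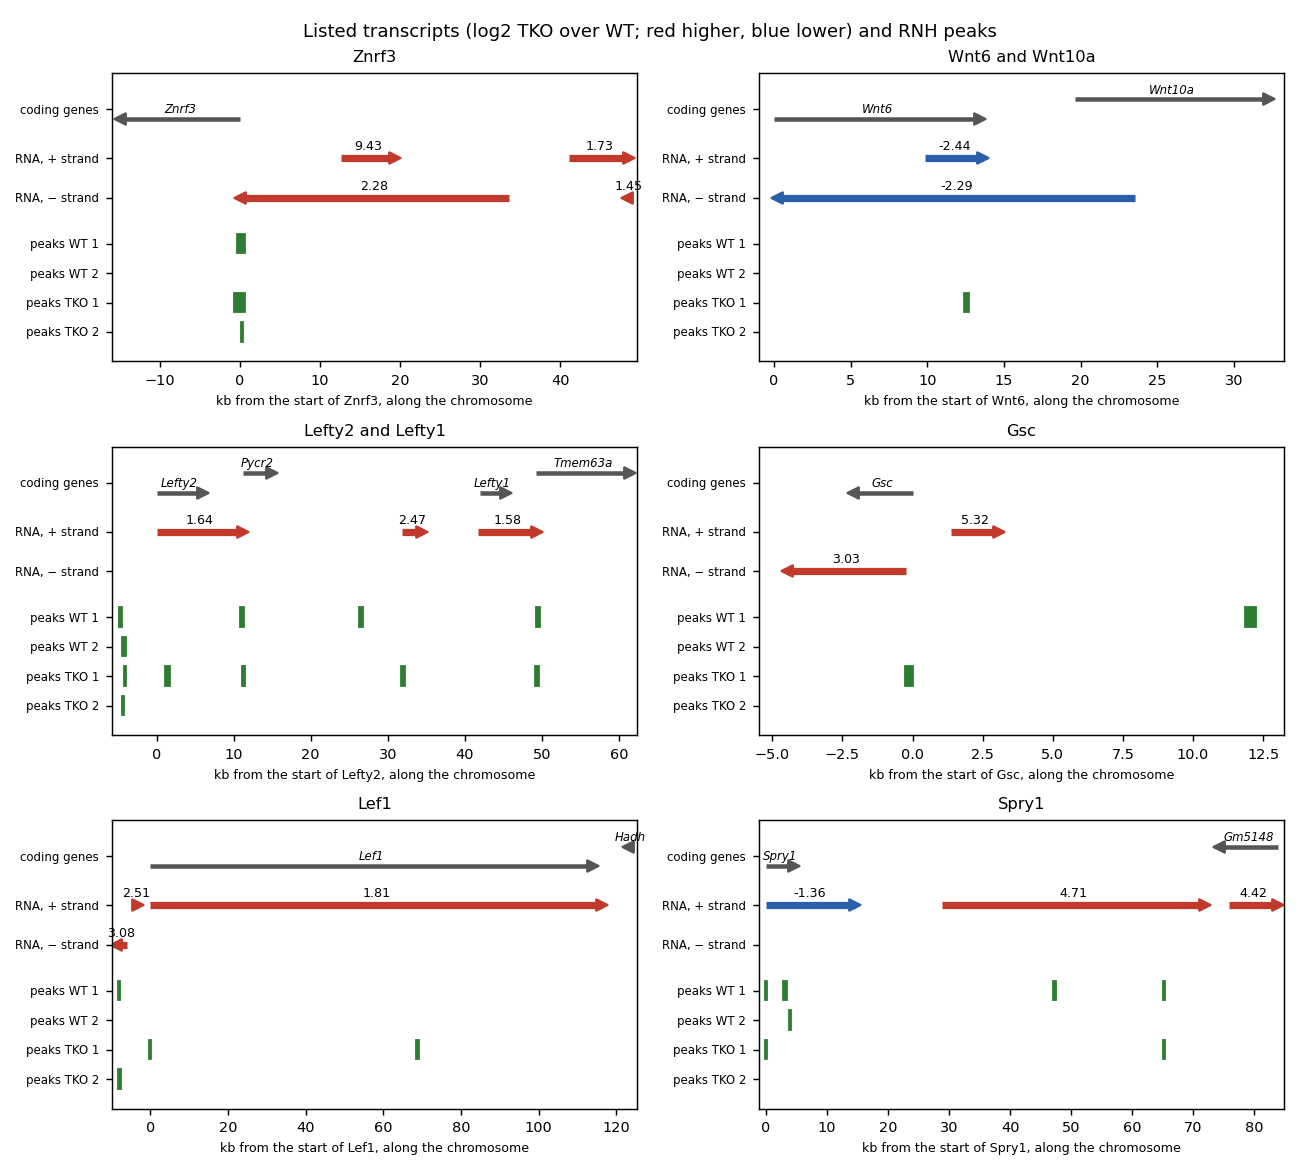
Listed transcripts of the authors' deposited table by strand (red higher and blue lower in TKO, with the log2 value), annotated coding genes (grey) and RNH peaks of the 4 libraries (green) around 6 loci. The horizontal axes give the distance along the chromosome from the start of the first gene in kb, and shapes are cut at the panel edges. The transcript of 9.43 lies inside the span of the 2.28 transcript before Znrf3, and at Spry1 the gene's own transcript is blue and the one after it red.

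Lef1 and Tcf7, the members that encode nuclear partners of beta-catenin, were both higher. Tcf7l1 and Tcf7l2, of the same kind but outside the rule, were lower at -1.47 and -1.57. Lef1, itself a known Wnt target, had a gene transcript of 116599 bp over the whole gene at 1.81 in the authors' deposited table. Short transcripts before it, on the same strand (2.51) and on the opposite strand (3.08), were higher still and lie 3260 bp and 6002 bp from the gene. Tcf7, also a target, stood at 1.14 and overlaps Skp1a on the other strand, which was listed at 1.05. The Lef1 promoter at chr3:131110073-131110372 (plus strand) and the stretch of 236 bp at chr3:131102297-131102532 (minus strand, that of the transcript) are shown as the start of the transcript listed over the whole gene and as the place upstream with a peak in both genotypes. CpG is in capitals.
Lef1 promoter: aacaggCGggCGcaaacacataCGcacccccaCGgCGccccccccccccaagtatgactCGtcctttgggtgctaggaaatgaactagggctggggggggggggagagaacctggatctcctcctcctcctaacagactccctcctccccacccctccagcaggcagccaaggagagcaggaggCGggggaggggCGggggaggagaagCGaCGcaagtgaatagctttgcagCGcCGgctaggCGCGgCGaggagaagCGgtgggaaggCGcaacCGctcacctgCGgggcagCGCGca
Stretch upstream of Lef1: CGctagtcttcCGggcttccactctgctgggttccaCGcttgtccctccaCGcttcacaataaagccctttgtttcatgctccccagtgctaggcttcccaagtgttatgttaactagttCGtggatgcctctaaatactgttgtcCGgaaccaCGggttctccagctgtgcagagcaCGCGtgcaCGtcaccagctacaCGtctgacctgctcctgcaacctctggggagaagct
The promoter has 21 CpG and the upstream stretch 11. Over the upstream stretch the peak of WT replicate 1 had a fold enrichment of 3.57 and that of TKO replicate 2 had 7.30, with no peak in the other replicate of either genotype. The start of Lef1 itself had a peak in TKO replicate 1 alone (3.01).

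FGF genes gave few gene transcripts. Fgf1, a ligand of all the FGF receptors, was higher in 2 pieces, at 1.59 and 1.44 in the authors' deposited table. Fgfr3 was lower at -2.53, and Fgfbp1, a secreted carrier that frees FGFs from the matrix, was lower at -1.32. The intergenic transcripts with FGF names lie far from their genes. The one named for Fgfr1 stood at 6.03, or 65.3-fold higher, but lies 58702 bp away on the other strand over the non-coding gene Gm45238, and the one named for Fgf18 at 2.01 lies 90884 bp away. Whether these transcripts bear on the genes they are named for was not tested.

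Sprouty genes encode feedback inhibitors of FGF signalling to ERK, and Spry1 was the only gene name listed in both directions. The gene itself was lower at -1.36 in the authors' deposited table, whereas an intergenic transcript of 43044 bp on the same strand, beginning 14354 bp after the Spry1 transcript ends, was higher at 4.71, or 26.2-fold. That transcript borrows the name and overlaps another annotated gene on its strand, Gm43414. An intergenic transcript named for Gm5148, 3931 bp further, was higher at 4.42. Spry4 was lower at -1.96. The intergenic transcript on its strand 72667 bp before the gene overlaps Arhgap26 and AC133601.1, which lie on the other strand. It was lower by nearly as much, at -1.97, and whether it bears on Spry4 was not tested. The next listed member on that side, Fgf1, 156314 bp further, was in the other direction. For Spry2 the table lists an intergenic transcript on the opposite strand at 1.82. The start of Spry4 was the only member start with an RNH peak in all 4 libraries, with fold enrichments of 3.36 and 3.87 in WT and 2.93 and 3.66 in TKO, so that the genotypes overlapped.

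All 6 transcripts with Bmp ligand names were lower in TKO, where 55.0% of all gene transcripts were lower. They belong to 4 gene names only. Bmp4, the ligand that supports self-renewal, stood at -2.86 in the authors' deposited table, or 7.27-fold lower, over its whole length from the annotated start. Bmp1, which encodes a procollagen protease and not a ligand of the receptors, was lower in 3 pieces at -1.99, -2.22 and -2.13. The fused annotations Bmp8a-Oxct2a and Bmp8b-Oxct2b stood at -2.83 and -1.59. Bmp8a and Bmp8b are near-identical neighbours, and reads could be split between them, so their separate values are uncertain. For the rest of the group, Bmp2k was at -1.74.

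Among the 39 gene transcripts of the group, the lowest and the highest value both belonged to receptors of this branch. Tgfbr2, the type II receptor of TGF-beta, was the lowest of the 56 transcripts at -3.77 in the authors' deposited table, or 13.6-fold lower, over its whole gene on chromosome 9 at 116080316 to 116175368. Bmpr1b, a type I BMP receptor, was listed in 4 pieces on chromosome 3 between 141837460 and 141931767, at 3.05, 3.07, 3.13 and 3.33, or 8.31-fold to 10.1-fold higher. The 4 pieces are parts of 1 gene and not replicates. The piece with the highest value begins 237658 bp after the outermost annotated start and 179 bp from an inner RefSeq start. The promoters of this inner start (chr3:141931539-141931838, minus strand) and of Tgfbr2 (chr9:116175314-116175613, minus strand) are shown because these receptors lie at opposite ends of the gene transcripts. CpG is in capitals.
Bmpr1b promoter: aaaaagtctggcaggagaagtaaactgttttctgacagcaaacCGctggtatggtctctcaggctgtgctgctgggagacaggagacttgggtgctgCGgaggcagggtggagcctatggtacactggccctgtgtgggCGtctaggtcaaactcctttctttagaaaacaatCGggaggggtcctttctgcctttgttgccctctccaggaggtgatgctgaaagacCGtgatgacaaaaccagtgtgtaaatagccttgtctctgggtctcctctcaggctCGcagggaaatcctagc
Tgfbr2 promoter: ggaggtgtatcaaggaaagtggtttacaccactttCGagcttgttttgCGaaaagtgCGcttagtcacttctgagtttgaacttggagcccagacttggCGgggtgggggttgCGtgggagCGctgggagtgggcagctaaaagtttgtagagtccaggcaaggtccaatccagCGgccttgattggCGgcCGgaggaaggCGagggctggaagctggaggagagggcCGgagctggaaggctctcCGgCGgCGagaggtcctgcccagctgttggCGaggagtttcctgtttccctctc
Bmpr1b has 6 CpG here and Tgfbr2 has 15, and 56.4% and 34.6% of RefSeq promoters have as many or more. No library had an RNH peak at the outermost start of Bmpr1b, and TKO replicate 1 alone had one at that of Tgfbr2 (3.36).

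Smad genes were listed at lower values where the gene itself was listed. Smad3, which carries TGF-beta and Nodal signals to DNA, stood at -1.07 in the authors' deposited table, near the limit, and Smad7, the inhibitory Smad, stood at -1.35. An intergenic transcript of 844 bp on the strand opposite to Smad4 stood at 2.86 and lies 11423 bp from the gene. Smad1, Smad2 and Smad5 had no gene transcript.

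Gsc, Lefty1 and Lefty2, the members of the Nodal branch outside the receptors and Smads, held 5 transcripts, all higher in TKO. Of all listed transcripts, 45.0% of the gene class and 74.0% of the intergenic class were higher. The rule names these genes singly. Gsc, a homeobox gene of the organizer, stood at 3.03 in the authors' deposited table, or 8.16-fold, and a transcript on the other strand that begins 1376 bp before the gene start and lies over Gm10000 stood at 5.32, or 40.0-fold. Lefty1 and Lefty2, secreted inhibitors of Nodal, stood at 1.58 and 1.64, and an intergenic transcript on the same strand 7439 bp before Lefty1 stood at 2.47. Lefty1 and Lefty2 are close copies, so shared reads could make their values alike, and the Lefty1 transcript runs into Tmem63a on the same strand. The Gsc promoter (chr12:104473187-104473486, minus strand) is shown because it lies between the 2 transcripts that point away from each other, with CpG in capitals.
Gsc promoter: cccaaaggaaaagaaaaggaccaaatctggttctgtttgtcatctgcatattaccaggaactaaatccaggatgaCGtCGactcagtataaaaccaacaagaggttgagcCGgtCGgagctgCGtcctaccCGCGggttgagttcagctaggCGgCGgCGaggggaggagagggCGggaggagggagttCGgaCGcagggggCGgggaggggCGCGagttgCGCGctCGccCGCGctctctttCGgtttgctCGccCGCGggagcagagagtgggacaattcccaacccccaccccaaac
This stretch has 25 CpG and the letters TATAAA, which 3 of the 23 member promoters hold on either strand, against 13.6% of all promoters. The start of Gsc had an RNH peak in TKO replicate 1 (3.25) and in no other library.

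RefSeq promoters of GRCm38 were matched for 23 of the 39 genes and are missing for Bmp1, Dkk3, Fgf1, Fgfr1, Fzd2, Fzd3, Fzd6, Lefty1, Lefty2, Smad4, Smad7, Spry4, Wnt10a, Wnt7b, Wnt8a and Znrf3. Where a gene has several promoters in the table, the one nearest the listed transcript's 5′ end was taken. The 23 were rich in CpG, with a median of 25 per 300 bases against 7 over all promoters. The 13 genes with lower gene transcripts had a median of 29 (4 to 51) and the 7 with higher ones a median of 21 (6 to 53), so the ranges overlapped almost fully. AATNNACA, the letters bound by the Nodal partner Foxh1, was found in Spry2 alone, against 12.2% of all promoters, on either strand. The Smad palindrome GTCTAGAC was in none, against 0.213%. Over the whole transcripts, the members' median width was 10872.5 bp against 10904 bp for all listed, their median GC content 49.4% against 45.1%, and their median share of repeats 17.7% against 22.8%.

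Chromosomes carry unequal backgrounds. On chromosome 11, where 88.4% of all listed transcripts were higher in TKO, 6 of 8 members were higher, and both lower ones were pieces of Wnt3a. On chromosome 9, where 31.5% were higher, Tgfbr2 and Smad3 were both lower. Without chromosome 11, 24 of 48 members were higher. Directions of Fzd2, Tcf7, Znrf3, Tgfbr2 and Smad3 thus match most of the listed transcripts around them on their chromosome, and what part the chromosome had in each was not tested.

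Other genes of these pathways were taken from lists that hold no member. Of 56 other Wnt pathway genes, 4 had a gene transcript higher in TKO (7.14%) and 8 a lower one (14.3%), against 4.11% and 4.78% of all coding genes. The higher ones in the authors' deposited table were Ror1, a Wnt receptor kinase listed in 8 pieces from 2.33 to 4.64, Prickle1 of planar polarity (2.29), Apc2 (1.17) and Axin2, a feedback inhibitor and a known target (1.16). The lowest were Sfrp4, a secreted inhibitor (-2.17), Lgr6, an R-spondin receptor (-2.16), Bcl9l, a beta-catenin co-factor (-1.63), and Tcf7l2 (-1.57). Tcf7l1, the Tcf that represses pluripotency genes in stem cells, stood at -1.47, so the 4 Tcf and Lef genes divided evenly between directions. This gene was named after its value was seen.

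Of 43 other FGF and ERK pathway genes, 1 was higher (2.33%) and 8 were lower (18.6%), against 4.11% and 4.78% of all coding genes. The higher gene was Gab1, a docking protein, at 2.66 in the authors' deposited table. The lowest were the ERK phosphatase gene Dusp5 (-1.78), the ERK-responsive factor Etv4 (-1.73), the inhibitor Spred1 (-1.59) and the factor Etv1 (-1.30). The other 4 were Dusp6, Shc1, Ets2 and Il17rd, between -1.27 and -1.09, named after their values were seen. The shares were not tested.

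Of 61 other BMP, Nodal and TGF-beta pathway genes, 3 were higher (4.92%) and 7 lower (11.5%), where all coding genes had 4.11% and 4.78%. Inhbe, an activin subunit gene (3.02 in the authors' deposited table), Id3, a BMP target (1.60), and Gdf3, a ligand of the Nodal branch (1.29), were the higher ones. Acvrl1, a type I receptor known from endothelium, was lowest at -3.92, followed by Id2 (-2.18), Id1 (-2.17) and Pcsk6 (-2.00), a protease that processes Nodal. The Id genes, standard readouts of BMP signalling, thus stood in both directions, with 2 lower and 1 higher.

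RNH peaks lay over 20 of the 56 signalling transcripts in WT replicate 1 (35.7%), 3 in WT replicate 2 (5.36%), 27 in TKO replicate 1 (48.2%) and 5 in TKO replicate 2 (8.93%). Replicates of 1 genotype differed more than the genotypes did, as did their peak lists, which hold 22336 and 6612 peaks in WT and 25392 and 6458 in TKO. The mean share was 28.6% ± 27.8 (SD, n = 2) in TKO and 20.5% ± 21.5 (SD, n = 2) in WT. The difference of 8.04 percentage points was smaller than the spread between replicates (two-sided exact permutation test, p = 0.667, where the smallest p that 2 against 2 allows is 0.333). All listed transcripts had a peak in 33.6% and 9.26% of cases in the WT libraries and in 35.1% and 10.0% in the TKO libraries. The difference had the other sign without WT replicate 2 (-7.14 points) or without TKO replicate 1 (-11.6). Without WT replicate 1 it was 23.2 points and without TKO replicate 2 it was 27.7. With peak lists cut to equal lengths it was 2.68, and with a −log10 q of at least 5 it was -0.893.

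**Figure D4:**
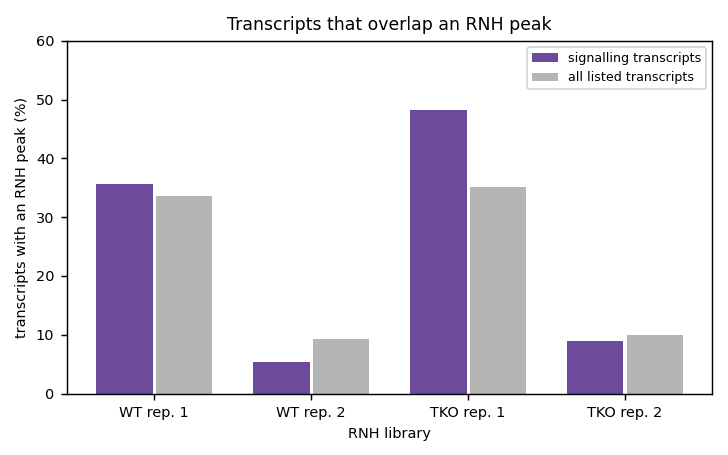
Share of transcripts that overlap an RNH peak (vertical axis, percent) in each of the 4 RNH libraries, for the 56 signalling transcripts (purple) and all 5723 listed transcripts (grey). Replicate 1 of both genotypes stands far above replicate 2, at 35.7% and 48.2% against 5.36% and 8.93% for the signalling transcripts.

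By direction, peaks in TKO replicate 1 lay on 17 of the 26 lower transcripts (65.4%) and 10 of the 30 higher ones (33.3%), where all listed transcripts had 38.8% and 32.6%. In WT replicate 1 the counts were 11 (42.3%) and 9 (30.0%), against 40.7% and 28.9% of all. Replicate 2 of WT gave 3 (11.5%) and 0, against 11.9% and 7.54% of all. In TKO replicate 2 the counts were 2 (7.69%) and 3 (10.0%), against 8.88% and 10.8% of all. The order of the directions was thus the other way in TKO replicate 2, as it was over all listed transcripts. The lower transcripts are longer, with a median width of 20608 bp against 8411 bp, and the part of width was not tested. No RNH peak lay on 26 transcripts, and no MNase-only peak lay on any transcript or start of the group.

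Gene starts gave a similar picture. Within 1 kb of the annotated start, 17 and 2 of the 39 genes had an RNH peak in WT replicates 1 and 2 (43.6% and 5.13%) and 21 and 4 in TKO (53.8% and 10.3%). Over all coding genes the shares were 40.8% and 9.91% in WT and 45.7% and 12.8% in TKO. The mean was 32.1% ± 30.8 (SD, n = 2) in TKO and 24.4% ± 27.2 (SD, n = 2) in WT, a difference of 7.69 points (two-sided exact permutation test, p = 0.667). Its sign changed without WT replicate 2 (-11.5) or without TKO replicate 1 (-14.1), and it was 26.9 without WT replicate 1 and 29.5 without TKO replicate 2. Spry4 alone had a peak in 4 libraries, where 5.78% of coding genes do, and with Fzd2, Fzd7 and Znrf3, 4 genes had one in at least 3 libraries, where 14.4% do. Those 3 lacked the peak of WT replicate 2 only. Of the rest, 10 starts had a peak in 2 libraries, always replicate 1 of both genotypes, 11 in 1 library and 14 in none, where 48.5% of coding genes have none. The 14 include Bmpr1b, Wnt5b, Fgf1 and Wnt6. Their listed gene transcripts begin at least 237658, 95411, 10773 and 9840 bp after the annotated start used here. Some of the 39 genes had no listed gene transcript. No start had a peak in both replicates of 1 genotype and in neither of the other.

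**Figure D5:**
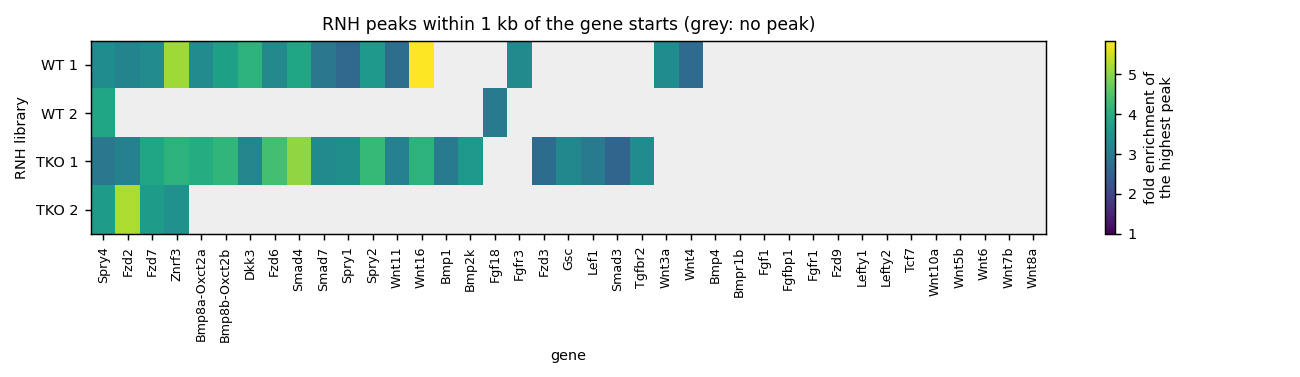
Highest fold enrichment, as the authors give it, of an RNH peak within 1 kb of the start of each of the 39 genes (columns) in the 4 libraries (rows), with grey where no peak was listed. Spry4 is coloured in every row, Fzd2, Fzd7 and Znrf3 in all but WT replicate 2, and the 14 columns on the right are grey throughout.

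Beside Znrf3, the starts with the highest peaks were Wnt16, at a fold enrichment of 5.84 in WT replicate 1 and 4.12 in TKO replicate 1, Smad4 at 3.84 and 5.04 in the same libraries, and Fzd2 at 5.25 in TKO replicate 2. Fzd7, with 3.34 in WT replicate 1, 3.84 in TKO replicate 1 and 3.68 in TKO replicate 2, is a member with peaks in 3 libraries and a RefSeq promoter, shown with CpG in capitals at chr1:59481897-59482196 (plus strand).
Fzd7 promoter: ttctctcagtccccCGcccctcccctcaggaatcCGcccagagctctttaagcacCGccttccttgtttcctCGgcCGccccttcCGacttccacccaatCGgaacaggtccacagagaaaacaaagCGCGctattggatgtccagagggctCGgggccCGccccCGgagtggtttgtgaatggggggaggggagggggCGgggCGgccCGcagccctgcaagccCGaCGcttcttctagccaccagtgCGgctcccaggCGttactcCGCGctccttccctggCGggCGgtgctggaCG
The stretch holds 24 CpG, near the members' median. Bmp4, Wnt8a, Lefty1, Lefty2, Fgfr1 and Tcf7 were among the 14 genes with no peak at the start in any library. A list that holds few peaks leaves weaker sites out, so no peak does not show that a site is free of R-loops.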

How the data were processed

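Of the 32 samples, those used were 6 cheRNA samples, through the authors' deposited table of log2 fold changes, and 6 MapR libraries. For cheRNA, the submitters' processing notes name DESeq2, TopHat2, BWA, bedtools and SAMtools, and for MapR they name MACS2 and BWA, all with mm10. Their versions and options, and the control used to call peaks, are not given in the sources used. The deposited peak lists, 1 per library, hold a fold enrichment (a ratio), −log10 p and −log10 q, and a score (10 times the −log10 q, without decimals). Depth is unknown, and no interval for it is given.

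The deposited sign was multiplied by -1. Peaks that overlapped an MNase-only peak of either genotype were removed, and any overlap of 1 bp counted. Genes came from GENCODE M21, promoters from RefSeq (GRCm38). Python 3.11.15, pandas 2.3.3, scipy 1.17.1 and pysam 0.24.0 were used, and the overlap code was tested on simulated data. Named are the H1 genes, all members with a gene transcript, the 10 highest and 10 lowest members, genes with 3 or more transcripts, genes with starts shared by all libraries, and 4 genes per pathway list and direction. Other members and markers named were chosen after their values were seen. Members, lists and rules were chosen with earlier results of these data known. Other assays of the series were not analysed here.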

Additional observations from a re-analysis of the deposited data

How the results depend on the processing

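The share of signalling transcripts higher in TKO (53.6%) moved between 49.0% and 59.4% over 5 alternatives (absolute log2 of at least 2, 1 vote per gene name, without chromosome 11, without Bmp2k, and within 100 kb of the named gene's start). Each alternative reuses the same transcripts, so it is no independent check of the share. The difference in transcripts with an RNH peak, 8.04 percentage points, was -0.893 with a −log10 q of at least 5, and that at gene starts, 7.69 points, was 0.0. Leaving out 1 library at a time gave -11.6 to 27.7 points for transcripts and -14.1 to 29.5 for starts, negative in both without WT replicate 2 and without TKO replicate 1. The other alternatives (equal list lengths, no removal of control peaks, peak midpoints, without chromosome 11, and for starts a window of 250 bp before to 50 bp after) kept the sign, but equal list lengths lowered the difference for transcripts to 2.68 points (6.41 at starts). With the replicate number as a block the differences were the same 8.04 and 7.69 points, each with a sign-flip p of 0.5 (exact, the smallest that 2 pairs allow). Same-numbered libraries had deviations with a correlation of 0.13 over 285 bins of 10 Mb, but the labels do not pair them, and with 2 pairs the numbers are only shared. No test in this design can pass 0.05, so these values say nothing of stability. Limits are the missing values per sample in the cheRNA table, the sign taken from 3 genes, and the shorter peak lists of replicate 2.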

Other observations

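Listed neighbours were compared with the signalling transcripts. Of the 56, 26 had a listed transcript of another gene name within 100 kb, and the nearest one was in the same direction for 20 (76.9%), against 81.0% of 2154 such cases over the whole deposited table. Around Znrf3 all listed neighbours were higher, among them a transcript on the 5′ side of Xbp1 at 7.53 on the log2 scale in the authors' deposited table. The listed neighbours of Gsc, named for the serpin genes Serpina3m and Serpina3n and all on the same side of it, were higher, from 1.66 to 3.86. Against their neighbours stood Smad7 at -1.35, beside antisense transcripts in Ctif at 3.71 and 1.97, and Spry4 at -1.96, beside intergenic transcripts named for Ndfip1 at 5.82 and 4.71. Fgfbp1 at -1.32 lies 8776 bp from Prom1 at 1.39.

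Transcripts of other classes named for the listed pathway genes were also counted. Higher in TKO were 8 of the 11 such transcripts of the Wnt list, 9 of the 13 of the FGF and ERK list, and 7 of the 14 of the BMP, Nodal and TGF-beta list (72.7%, 69.2% and 50.0%), against 75.6% of all listed transcripts outside the gene class. Antisense transcripts within Daam1, a Wnt effector of cell polarity, stood at 5.12 and 3.88 in the authors' deposited table, and one within Gab1 at 4.59 beside 2.66 for the gene.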
